A study of Mus musculus with 25 samples.

Results

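Brunner's glands are mucous glands in the submucosa of the duodenum, packed most densely next to the stomach outlet and thinning out further down. The mouse duodenum libraries of this study carry very different amounts of their RNA, and 24 of 25 libraries were divided by the RNA of Muc6, the gland's main secreted mucin. A library was called gland-rich with Muc6 at 400 counts per M (mega) counts (CPM) or more, which held for 10 libraries, and gland-poor with Muc6 under 100 CPM, which held for 14. The members were thus selected on their measured Muc6 counts. The remaining library, KI_Half replicate 1, had 206 CPM and was left out. The division describes what each piece of duodenum contained and not a treatment.

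Polyadenylated RNA came from the duodenum of male mice that were 8 weeks old when an 8-week feeding period began, and the labels do not say where along the duodenum each piece was cut. The mice were C57BL/6N (WT) or carried an Aldh2 knock-in (KI), an allele of the mitochondrial enzyme that clears the acetaldehyde made from ethanol. WT_Full mice received 5% ethanol in the diet and gavages of 4 g/kg ethanol 2 times a week. WT_Half and KI_Half mice received 2.5% ethanol in the diet and gavages of 2 g/kg at the same rhythm, and WT_Con and KI_Con mice a control diet. Ethanol-fed mice were killed 9 h after their final gavage, stated as 5 g/kg ethanol, and the labels do not say whether control mice were gavaged. The gland-rich libraries were 1 of 4 from WT_Full, 2 of 7 from WT_Half, 2 of 6 from KI_Half, 3 of 4 from WT_Con and 2 of 4 from KI_Con. Ethanol-fed mice gave 5 of 10 gland-rich and 11 of 14 gland-poor libraries (two-sided Fisher's exact test p = 0.204), and KI mice gave 4 of 10 gland-rich and 5 of 14 gland-poor libraries (p = 1). Totals averaged 33.0 ± 6.29 M counts in gland-rich and 31.5 ± 3.10 M counts in gland-poor libraries (SD, n = 10 and 14; two-sided permutation test p = 0.458), so each library could resolve a gene to well below 1 CPM. The labels do not say that each library is a separate animal, so p-values measure the spread between libraries.

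Brunner gland mucus coats the upper duodenum against gastric acid. Its mucin, MUC6, is decorated with sugar chains that end in alpha-1,4-linked N-acetylglucosamine, and it is released with the trefoil peptide TFF2, which binds those chains. The same pairing of MUC6 and TFF2 is made by the mucous neck and antral gland cells of the stomach, as is gastrokine 3, the product of Gkn3. These shared products mean that Brunner gland RNA and RNA of deep stomach glands cannot be separated by Muc6, Tff2 and Gkn3 alone.

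Muc6 (GRCm38 chr7:141633456-141655319, minus strand) spanned 411 to 21066 CPM in gland-rich libraries with a median of 3886 CPM, against 6.05 to 62.4 CPM with a median of 19.1 CPM in gland-poor libraries. Just inside the threshold lay KI_Con replicate 4 at 411 CPM and KI_Half replicate 7 at 694 CPM, and the highest gland-poor libraries were KI_Con replicate 1 at 62.4 CPM and WT_Half replicate 1 at 51.7 CPM. The extremes were WT_Con replicate 3, with the most Muc6, and WT_Full replicate 4, with the least. Tff2 (chr17:31141049-31144282, minus strand) spanned 392 to 20794 CPM in gland-rich libraries (median 3984), against 3.04 to 68.7 CPM in gland-poor libraries (median 19.6). Gkn3 (chr6:87383256-87388935, minus strand) spanned 212 to 11107 CPM in gland-rich libraries (median 2132), against 4.63 to 40.0 CPM in gland-poor libraries (median 16.0). Tff2 and Gkn3, which the division did not use directly, were higher in every gland-rich library than in any gland-poor one, so the label fits these markers. Together the 3 transcripts made up 0.102% to 5.30% of all counts in gland-rich libraries, and at most 0.0171% in gland-poor ones. Since these 3 genes set or check the division, no test is given for them.

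**Figure D1:**
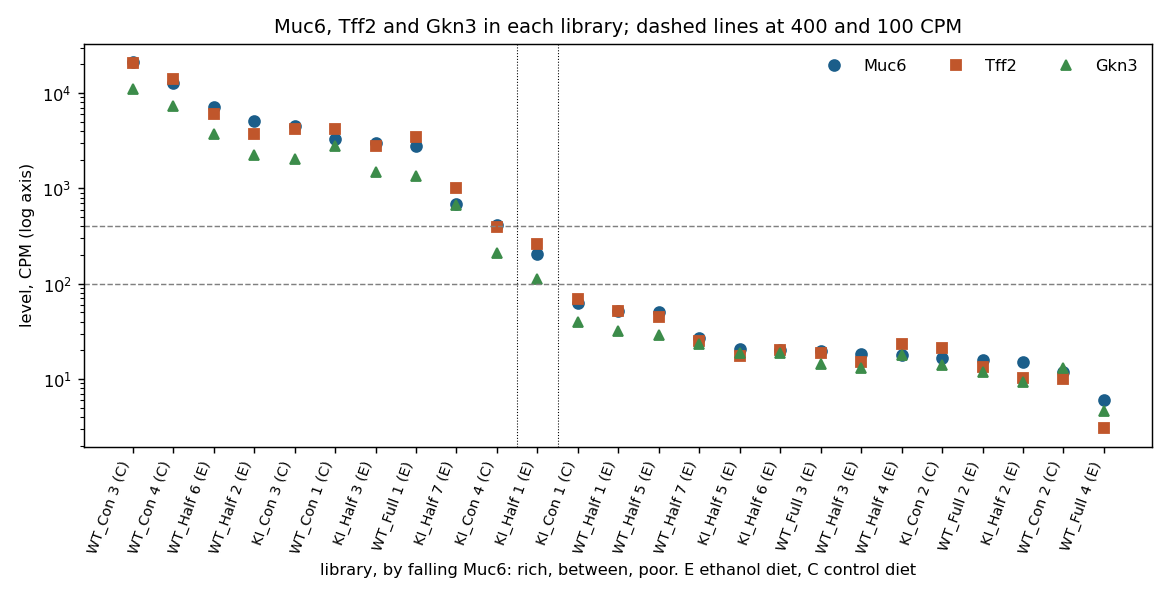
Levels of Muc6, Tff2 and Gkn3 in CPM (log axis) in each of the 25 libraries, ordered by falling Muc6, with E for ethanol and C for control diet. The 10 gland-rich libraries stand left of the dotted lines, KI_Half replicate 1 between them and the 14 gland-poor libraries on the right; the 3 genes fall side by side from WT_Con replicate 3 to WT_Full replicate 4.

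The proportions of the 3 markers to each other varied far less than their levels over this range. Per 1000 Muc6 counts, gland-rich libraries held 740 to 1470 Tff2 counts (median 970), against 502 to 1295 (median 908) in gland-poor libraries. Gkn3 stood at 442 to 970 counts per 1000 Muc6 counts in gland-rich libraries (median 515) and 572 to 1107 in gland-poor libraries (median 753). Scaled by the exon length of each gene, median levels in gland-rich libraries were 415 CPM per kb for Muc6, 6822 for Tff2 and 2491 for Gkn3, so the trefoil peptide was the most abundant of the 3 transcripts per length. In gland-poor libraries the medians were 2.04 CPM per kb for Muc6, 33.5 for Tff2 and 18.7 for Gkn3.

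The start regions of Muc6, Gkn3 and A4gnt, the 3 genes of the mucus unit with an entry in the RefSeq promoter table (GRCm38.p6), are shown because their transcripts moved together over the libraries. Each line gives the 250 bases before the transcription start, 5′ to 3′ on the gene's strand, at chr7:141655394-141655643 (minus) for Muc6, chr6:87388936-87389185 (minus) for Gkn3 and chr9:99612252-99612501 (plus) for A4gnt. Capitals mark matches, on either strand, to TATAA, which is the core of a TATA box, to AGATAA, which binds GATA factors, to TGTTTAC, which binds FOX factors, and to CCGGAAG, which binds ETS factors.
Muc6: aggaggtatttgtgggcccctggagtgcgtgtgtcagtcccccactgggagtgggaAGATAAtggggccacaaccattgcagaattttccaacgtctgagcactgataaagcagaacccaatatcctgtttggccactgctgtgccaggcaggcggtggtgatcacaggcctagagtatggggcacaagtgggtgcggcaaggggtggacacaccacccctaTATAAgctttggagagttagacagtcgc
Gkn3: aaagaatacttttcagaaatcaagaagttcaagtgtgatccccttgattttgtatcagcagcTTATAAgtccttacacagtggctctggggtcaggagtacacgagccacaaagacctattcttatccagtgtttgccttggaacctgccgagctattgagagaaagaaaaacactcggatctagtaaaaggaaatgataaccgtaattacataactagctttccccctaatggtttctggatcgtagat
A4gnt: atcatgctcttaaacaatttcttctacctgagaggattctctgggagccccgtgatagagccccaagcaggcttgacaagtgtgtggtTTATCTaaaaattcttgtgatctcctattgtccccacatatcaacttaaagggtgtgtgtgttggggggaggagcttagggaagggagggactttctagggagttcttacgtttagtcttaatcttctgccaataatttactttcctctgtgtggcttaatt
Muc6 had a TATAA match starting 28 bases before the start and an AGATAA match at 194 bases. These distances count from the RefSeq start, which for Muc6 lies upstream of the gene start in the coordinates given above. Gkn3 had TATAA matches on both strands that overlap each other, at 187 and 188 bases, and A4gnt had an AGATAA match on the opposite strand at 162 bases. Of the 93 genes called higher below and the 3 markers, 69 of 96 had an entry. TATAA occurred in 27.5% of these windows against 23.5% of 27025 promoters of the same length, AGATAA in 7.25% against 10.3%, TGTTTAC in 2.90% against 3.09% and CCGGAAG in 4.35% against 7.05%. None of these short motifs marked the group by more than a few percentage points.

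Gland-rich and gland-poor libraries were then compared over 16968 other genes, with control or ethanol diet held equal, by the quasi-likelihood F test of edgeR. At a Benjamini-Hochberg adjusted p under 0.05, 93 genes were higher in gland-rich libraries, which is 0.548% of those tested, and 1 was lower (0.00589%). The classes were cut from Muc6 in the same libraries, so a p here asks only whether a gene went with the Muc6 class. Of the 93 genes, 40 differed by a log2 of 2 or more, 44 by 1 to 2 and 9 by less than 1, and their median was 1.87, against -0.01 over all genes tested. For 16 genes (0.0943% of those tested) every gland-rich library lay above every gland-poor one, and for 0 genes the reverse held. The 16 were 2310057J18Rik, A4gnt, Aqp5, A2ml1, Adam28, Glp1r, Pgc, Slc9a4, Chad, Ugt8a, Habp2, Padi2, Clu, Tesc, Hgfac and Hpn. WT_Con replicate 3 was the highest library for 91 of the 93 genes. Without it 111 genes were called higher, among them 91 of the 93. Over all leave-one-out fits the total of called genes, 94 with every library, ran from 57 to 155, and it moved by more than 1.5 times without WT_Half replicate 6 (57 genes), KI_Con replicate 1 (62) or KI_Con replicate 4 (155). In bulk tissue, more gland cells and more RNA per gland cell cannot be told apart.

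**Figure D2:**
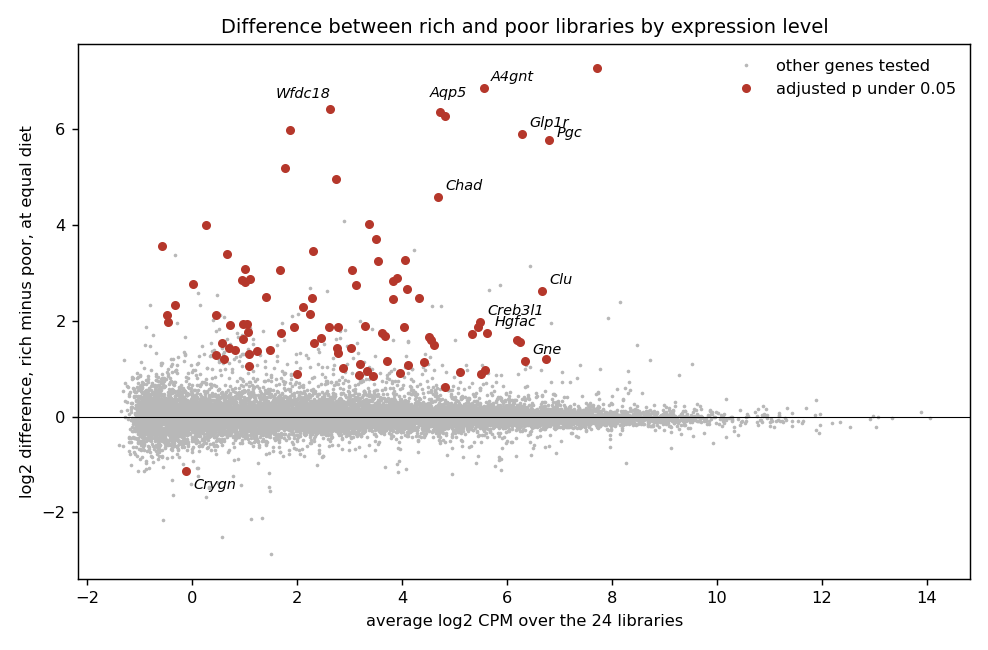
Log2 difference between gland-rich and gland-poor libraries at equal diet against the average log2 CPM over the 24 libraries, 1 point per gene tested. Red points passed an adjusted p under 0.05: 93 lie above the zero line and 1, Crygn, below it.

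The secreted mucus products and their helpers were among the genes with the largest differences. A4gnt (chr9:99612502-99622367, plus strand), the transferase that adds the terminal N-acetylglucosamine to gland mucin, had 6.62 to 395 CPM in gland-rich libraries (median 74.2), against 0.269 to 1.70 CPM in gland-poor libraries (median 0.731). Every gland-rich library was above every gland-poor one, and the log2 difference was 6.86 ± 0.58 (SE; edgeR adjusted p = 8.20e-08). Pgc (chr17:47726842-47734482, plus strand), which encodes the protease precursor pepsinogen C, had 14.2 to 987 CPM in gland-rich libraries (median 163), against 2.11 to 6.19 CPM in gland-poor libraries (median 3.19), a log2 difference of 5.78 ± 0.47 (edgeR adjusted p = 8.20e-08). Its classes did not overlap either. Aqp5 (chr15:99590782-99594829, plus strand), the water channel of exocrine glands, had 4.28 to 201 CPM in gland-rich libraries (median 42.1), against 0.125 to 2.13 CPM in gland-poor libraries (median 0.409), a log2 difference of 6.37 ± 0.55 (edgeR adjusted p = 9.75e-08). Muc5b, a second secreted mucin, did not pass the filter on low counts. It had 0.0731 to 65.6 CPM in gland-rich libraries with a median of 5.53 CPM, against at most 0.240 CPM in gland-poor libraries.

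Of the 19 genes listed for Brunner gland secretion, 12 were tested beside the 3 markers, and Muc5b, Bpifb1, Cldn10 and Fut9 were not. The test called 7 of these 12 higher and 0 lower, with a median log2 of 1.68, against 0.548% called higher and a median of -0.01 over all genes. The 7 were Pgc, A4gnt, Aqp5, Glp1r, Wfdc2, Spdef and Ern2. Not passing were Agr2, Egf, Ctse, Dmbt1 and Cckar. Agr2, a disulfide isomerase needed for mucin folding, had a median of 424 CPM in gland-rich and 178 CPM in gland-poor libraries and a log2 difference of 1.49 ± 0.42 (edgeR adjusted p = 0.155). Egf, long described as a Brunner gland product, was scarce, with 0.256 to 2.81 CPM in gland-rich and 0.343 to 1.49 CPM in gland-poor libraries (log2 0.90 ± 0.27, edgeR adjusted p = 0.252). Dmbt1, a mucus scavenger receptor, was abundant in both classes, with medians of 1735 CPM in gland-rich and 2519 CPM in gland-poor libraries (log2 0.18 ± 0.19, edgeR adjusted p = 1). These medians pool the diets, while the log2 difference holds diet equal. In ethanol libraries the Dmbt1 medians were 3995 CPM when gland-rich and 3165 CPM when gland-poor. In control libraries they were 1129 CPM when gland-rich and 1153 CPM when gland-poor.

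Among the 12 largest differences by the rule for named genes was A2ml1. This gene of an alpha-2-macroglobulin-like protease inhibitor had 3.03 to 212 CPM in gland-rich libraries (median 33.5), against 0.150 to 1.40 CPM in gland-poor libraries (median 0.706), a log2 difference of 6.27 ± 0.58 (edgeR adjusted p = 2.48e-07). Wfdc18, a small protein with a whey acidic protein domain, had medians of 10.8 CPM in gland-rich and 0.0642 CPM in gland-poor libraries, and overlapped only through KI_Con replicate 4 at 0.366 CPM (log2 6.43 ± 0.65, edgeR adjusted p = 8.09e-07). Wfdc2, of the same family, had medians of 17.2 CPM in gland-rich and 2.74 CPM in gland-poor libraries (log2 3.25 ± 0.46). Ltf, which encodes the iron-binding antimicrobial protein lactoferrin, had 2.74 to 45.3 CPM in gland-rich and 1.13 to 4.00 CPM in gland-poor libraries (log2 2.76 ± 0.35, edgeR adjusted p = 4.19e-05). Lpo, which encodes lactoperoxidase, did not pass the filter and had medians of 2.52 CPM in gland-rich and 0.0664 CPM in gland-poor libraries. Of 17 mucosal antimicrobial genes tested, 2 rose, Ltf and Wfdc2, and 0 fell, with a list median of 0.15 and 5 at an unadjusted p under 0.05. Lyz1, the Paneth cell lysozyme, had medians of 134 CPM in gland-rich and 384 CPM in gland-poor libraries (log2 -0.97 ± 0.39, edgeR adjusted p = 0.686).

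Further secreted and surface proteins were named singly, most of them after their values were seen. Habp2, a protease that activates coagulation factor VII, had 5.59 to 106 CPM in gland-rich libraries (median 26.2), against 1.38 to 4.80 CPM in gland-poor libraries (median 3.24), a log2 difference of 3.27 ± 0.36 (edgeR adjusted p = 5.17e-06). Clu, which encodes the extracellular chaperone clusterin, had 36.9 to 783 CPM in gland-rich libraries (median 127), against 9.75 to 34.2 CPM in gland-poor libraries (median 27.3), a log2 difference of 2.62 ± 0.35 (edgeR adjusted p = 7.70e-05). Both genes separated the classes without overlap. Coagulation factor V (F5) rose by a log2 of 2.67 ± 0.34, the activator of hepatocyte growth factor (Hgfac) by 1.74 ± 0.25, the membrane protease hepsin (Hpn) by 1.68 ± 0.25, complement factor I (Cfi) by 1.60 ± 0.25 and tissue kallikrein (Klk1) by 1.60 ± 0.25. Adam28, a metalloprotease, had medians of 4.35 CPM in gland-rich and 0.0627 CPM in gland-poor libraries (log2 6.00 ± 0.64, edgeR adjusted p = 2.40e-06). The largest log2 difference of all belonged to 2310057J18Rik, at 7.28 ± 0.71, with medians of 244 CPM in gland-rich and 1.26 CPM in gland-poor libraries; the files give no gene name beyond this clone identifier.

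**Figure D3:**
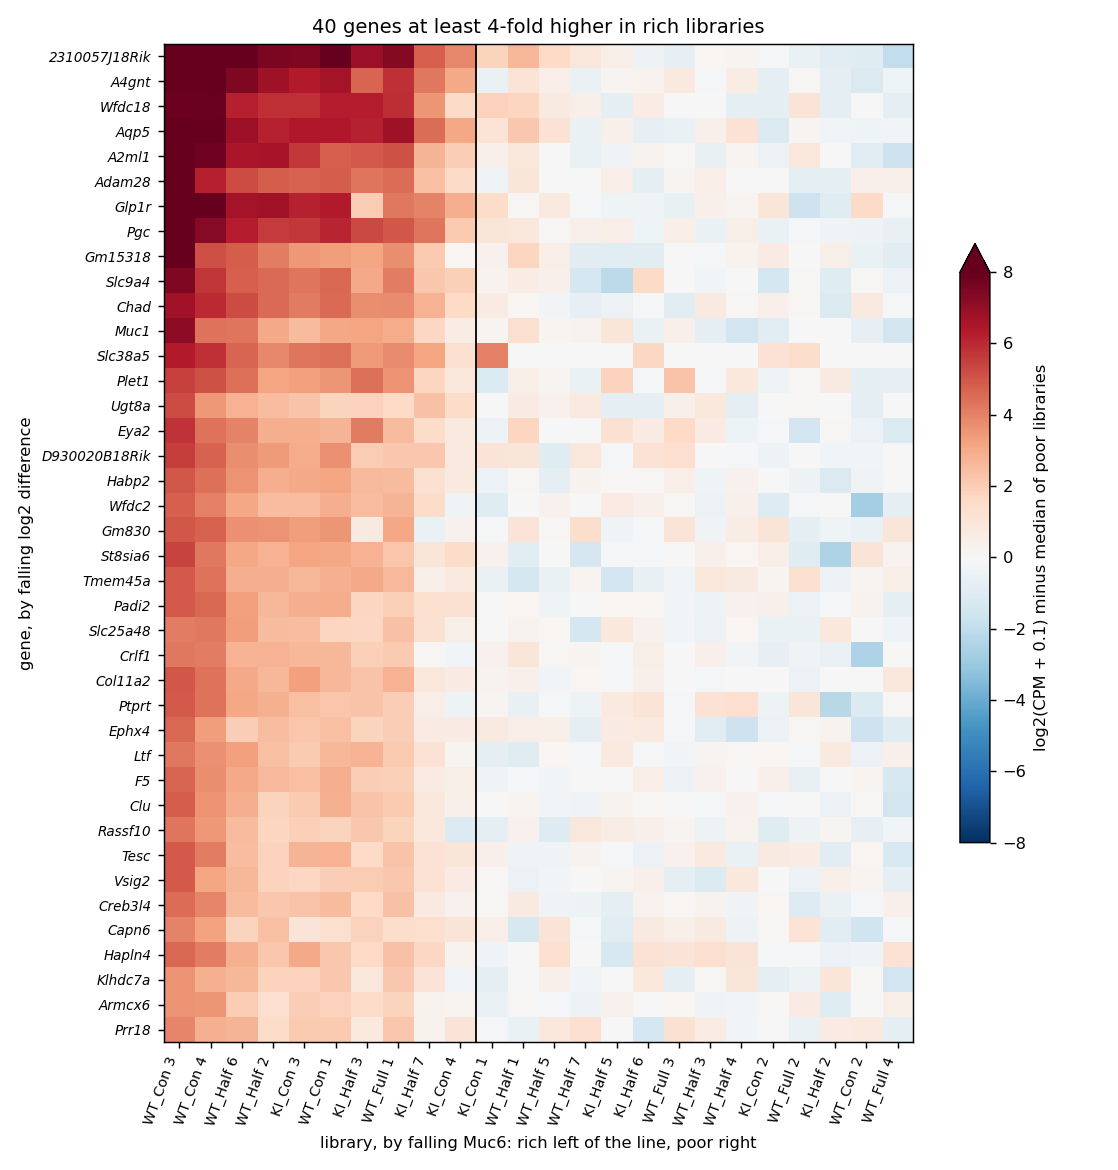
Levels of the 40 genes with a log2 difference of 2 or more, 1 row per gene and 1 column per library, as log2(CPM + 0.1) minus the median of the gland-poor libraries; colours end at 8. Gland-rich libraries are left of the line by falling Muc6, and in nearly all rows the colour fades from WT_Con replicate 3 to KI_Con replicate 4.

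Mucin sugar chains are built by a chain of Golgi transferases, of which 23 were tested. The test called 2 higher, A4gnt and Galnt5, and 0 lower, and the list median was 0.25. Galnt5, which starts O-linked chains, had 2.39 to 36.9 CPM in gland-rich and 1.04 to 5.44 CPM in gland-poor libraries (log2 1.86 ± 0.37, edgeR adjusted p = 0.00927). Its relatives Galnt12 and Galnt7 and the branching enzyme Gcnt1 had log2 differences of 1.09 ± 0.27, 0.99 ± 0.26 and 1.16 ± 0.29 with edgeR adjusted p of 0.0719, 0.0883 and 0.0723. Outside the list, the sialyltransferase St8sia6 rose by a log2 of 3.07 ± 0.38, with medians of 12.2 CPM in gland-rich and 1.50 CPM in gland-poor libraries. Gne, the enzyme that starts sialic acid synthesis, rose by 1.15 ± 0.23 (medians 99.3 CPM in gland-rich and 49.7 CPM in gland-poor libraries). Surface mucins were higher as well, Muc1 by a log2 of 4.02 ± 0.64 and Muc20 by 1.92 ± 0.43.

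Mucus is folded in the endoplasmic reticulum and packed through the secretory pathway. Of 38 genes of that pathway, 4 rose and 0 fell. Values lay above 0 for 34 and below 0 for 4, with 12 at an unadjusted p under 0.05 and a median log2 of 0.20, where 7962 of all 16968 genes lay above 0. Creb3l4, a membrane-bound transcription factor of secretory cells, had 5.08 to 91.9 CPM in gland-rich and 1.92 to 6.87 CPM in gland-poor libraries (log2 2.46 ± 0.36, edgeR adjusted p = 0.00025). Its relative Creb3l1 rose by 1.97 ± 0.34, the stress sensor of mucous cells Ern2 by 1.49 ± 0.28 and the cargo receptor Tmed3 by 0.88 ± 0.17. Spdef, a transcription factor of mucus-secreting cells, had 20.5 to 221 CPM in gland-rich and 10.5 to 34.5 CPM in gland-poor libraries (log2 1.87 ± 0.32, edgeR adjusted p = 0.00186). The epithelial factor Ehf rose by 1.56 ± 0.36, the coactivator Eya2 by 3.46 ± 0.54 and Elapor1, known from the granule-rich zymogenic cells of the mouse stomach, by 1.73 ± 0.27. Among 20 foregut and regional transcription factors tested, 0 were called and 3 had an unadjusted p under 0.05 (median -0.04). Sox9 had a log2 difference of 1.07 ± 0.30 (edgeR adjusted p = 0.154) and Foxa1 one of 0.99 ± 0.34 (edgeR adjusted p = 0.395).

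Spdef, Ern2, Creb3l1 and Klk1 are shared with intestinal goblet cells, and these were the 4 of 15 goblet cell genes that rose, with 0 that fell. Over that list 8 values lay above 0 and 7 below, 8 had an unadjusted p under 0.05 and the median was 0.06. Muc2, the goblet cell mucin, had 310 to 907 CPM in gland-rich libraries (median 570), against 483 to 1056 CPM in gland-poor libraries (median 864), and Zg16 had medians of 946 CPM in gland-rich and 1504 CPM in gland-poor libraries. Both ranges overlapped, with log2 differences of -0.40 ± 0.17 and -0.39 ± 0.18 (edgeR adjusted p = 0.775 and 0.912).

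Brunner's glands secrete under the control of nerves and gut hormones. Of 13 incretin, gut hormone and muscarinic receptors tested, 2 rose, Glp1r and Chrm1, 0 fell and the median log2 was 0.35. Glp1r (chr17:30901817-30940791, plus strand), the receptor of glucagon-like peptide 1, is known to be expressed in mouse Brunner's glands. It had 7.07 to 655 CPM in gland-rich libraries (median 132), against 0.440 to 4.81 CPM in gland-poor libraries (median 1.63). The classes did not overlap and the log2 difference was 5.90 ± 0.55 (edgeR adjusted p = 2.52e-07). Chrm1, the M1 acetylcholine receptor, had 2.52 to 23.8 CPM in gland-rich and 1.67 to 3.64 CPM in gland-poor libraries (log2 1.54 ± 0.31, edgeR adjusted p = 0.0103), and for Chrm3 the log2 difference was 0.87 ± 0.24 (edgeR adjusted p = 0.141). Gipr and Glp2r, receptors of the related peptides, had log2 differences of -0.58 ± 0.35 and 0.16 ± 0.29. Of genes chosen after their values were seen, the Gq-family subunit Gna14 rose by 1.77 ± 0.28 and Rapgef3, a cAMP-activated exchange factor, by 0.96 ± 0.22.

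Among ion and water transport genes, single members differed. Of 27 bicarbonate and fluid secretion genes, Aqp5 was the 1 that rose and 0 fell (median 0.11). The chloride channel gene Cftr had 88.2 to 394 CPM in gland-rich and 76.5 to 148 CPM in gland-poor libraries (log2 0.73 ± 0.19, edgeR adjusted p = 0.0806). Slc9a4, a sodium and proton exchanger also made by gastric glands, had 1.50 to 76.5 CPM in gland-rich libraries (median 8.99), against 0 to 1.12 CPM in gland-poor libraries (median 0.328), a log2 difference of 4.96 ± 0.61 (edgeR adjusted p = 2.60e-05). Of 17 sugar, amino acid and peptide carriers, 0 were called, 14 lay below 0 and the median was -0.09. Outside that list, the amino acid transporter Slc38a5 rose by 3.99 ± 0.70, the proline synthesis enzyme Pycr1 by 1.44 ± 0.31 and the mitochondrial folate enzyme Aldh1l2 by 1.94 ± 0.42, all chosen after their values were seen. Chad, which encodes the cartilage matrix protein chondroadherin, had 5.67 to 199 CPM in gland-rich and 0.768 to 3.08 CPM in gland-poor libraries without overlap (log2 4.59 ± 0.40, edgeR adjusted p = 1.02e-07). The collagen genes Col11a2 and Col9a3, chosen after their values were seen, rose by 2.84 ± 0.36 and 1.63 ± 0.24, while 0 of 17 fibroblast and matrix genes were called in either direction (median -0.06).

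Other called genes were Plet1, a surface protein of epithelial progenitors (log2 3.70 ± 0.51), the arginine-converting enzyme Padi2 (2.89 ± 0.33), Prom1 (1.20 ± 0.26), the nuclear receptor Nr4a2 (1.01 ± 0.19), the epithelial cytokine receptor Il17re (0.89 ± 0.20) and the fatty acid transporter Slc27a1 (0.62 ± 0.15). Isl1, a transcription factor of endocrine and other lineages, was the 1 of 21 enteroendocrine genes that rose, by 1.05 ± 0.24 (medians 2.55 CPM in gland-rich and 1.23 CPM in gland-poor libraries, edgeR adjusted p = 0.0395). The 1 gene called lower was Crygn, a lens-type crystallin, with 0.0677 to 0.768 CPM in gland-rich and 0.689 to 1.62 CPM in gland-poor libraries (log2 -1.15 ± 0.26, edgeR adjusted p = 0.0305). At about 1 CPM it is a scarce transcript, and the ranges of the classes overlapped.

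Genes of the remaining mucosa and wall gave no calls in most lists. None of the 20 brush border enzymes, 17 nutrient carriers, 20 fat absorption genes, 8 distal small intestine genes, 11 tuft cell genes, 15 crypt stem cell genes, 20 cell cycle genes, 18 smooth muscle genes, 18 neuron and glia genes, 14 endothelial genes, 5 red blood cell genes or 15 respiratory chain genes tested was called by edgeR, and their medians lay between -0.20 and 0.20. At an unadjusted p under 0.05 each of these lists held 0 to 4 genes. Several lists lay to one side of 0: all 18 smooth muscle genes, all 15 respiratory chain genes, 19 of 20 cell cycle genes and 19 of 20 fat absorption genes had values below 0. Over all genes tested, 895 had an unadjusted p under 0.05. The brush border peptidase gene Anpep had medians of 489 CPM in gland-rich and 659 CPM in gland-poor libraries, and Apoa4, of chylomicrons, had medians of 3614 CPM in gland-rich and 4223 CPM in gland-poor libraries. Iron and calcium absorption, which is concentrated in the upper duodenum, had 0 of 14 genes called and 2 at an unadjusted p under 0.05. Its most different member was Trpv6, the apical calcium channel, with 0.953 to 43.4 CPM in gland-rich libraries (median 12.4), against 0.216 to 13.0 CPM in gland-poor libraries (median 1.94), a log2 difference of 1.99 ± 0.56 (edgeR adjusted p = 0.154). The iron reductase gene Cybrd1 had medians of 489 CPM in gland-rich and 141 CPM in gland-poor libraries. Within diets, its gland-rich and gland-poor medians were 244 and 112 CPM with ethanol and 603 and 318 CPM with control diet. The iron transporter gene Slc11a2 had medians of 870 CPM in gland-rich and 306 CPM in gland-poor libraries. Within diets, its medians were 802 and 251 CPM with ethanol and 944 and 664 CPM with control diet. Ranges over both diets overlapped widely for both genes.

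Of 16 Paneth cell genes, Habp2 rose and 0 fell, while 13 had values below 0 and the median was -0.75. At an unadjusted p under 0.05 by edgeR there were 9 of the 16, Habp2 among them, against 895 of all 16968 genes tested. Defa3 had medians of 0.663 CPM in gland-rich and 2.15 CPM in gland-poor libraries (log2 -1.42 ± 0.46, edgeR adjusted p = 0.315), and Defa30 medians of 34.6 CPM in gland-rich and 83.4 CPM in gland-poor libraries; defensin genes are near-identical copies whose reads may be split among them. Pancreatic acinar genes, from tissue that touches the duodenum, summed to 57.5 to 3220 CPM in gland-rich and 40.9 to 6010 CPM in gland-poor libraries, with 0 of 19 called, 0 at an unadjusted p under 0.05 and a median log2 of -0.65. T and NK cell genes summed to 30.0 to 323 CPM in gland-rich libraries (median 195) and 23.3 to 330 CPM in gland-poor libraries (median 84.7). All 17 had values above 0 with a median of 0.56, and 0 were called by edgeR, with 2 at an unadjusted p under 0.05. The 12 B and plasma cell genes (median 0.31), 17 macrophage and dendritic cell genes (0.12), 8 neutrophil genes (-0.51), 8 adipose genes (0.35), 4 squamous genes (0.14) and 11 EGF family genes (0.01) had 0 called as well, with 0 to 3 at an unadjusted p under 0.05 in each. The 1 islet gene tested was not called, and the part of any of these cell types in the gland comparison was not tested.

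**Figure D4:**
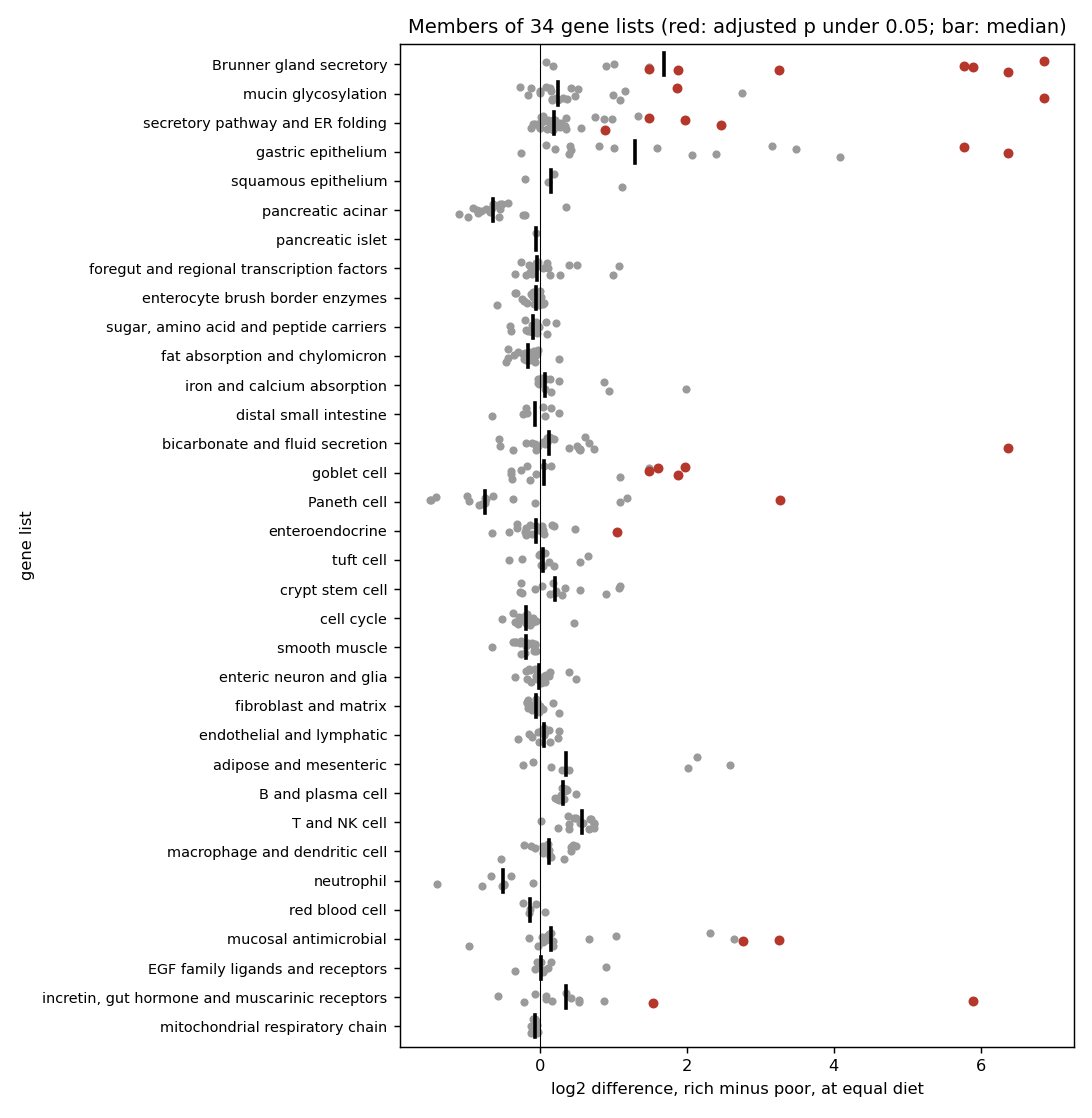
Log2 difference between gland-rich and gland-poor libraries for the tested members of 34 gene lists, 1 point per gene, with red for an adjusted p under 0.05 and a bar at each list's median. The Brunner gland list reaches from 0.08 to 6.86 with 7 red points, while the medians of the absorptive, muscle and nerve lists lie between -0.20 and 0.07.

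Stomach tissue borders the upper duodenum, and its genes were examined for that reason. Of 16 tested, Pgc and Aqp5 rose, both also Brunner gland genes, and the median log2 was 1.30. Values lay above 0 for 15 and below 0 for 1, with 6 at an unadjusted p under 0.05 by edgeR. WT_Con replicate 3 carried the products of stomach surface cells: 5664 CPM of Gkn1, 6632 CPM of Gkn2, 2017 CPM of Muc5ac and 433 CPM of Cldn18, against at most 14.8, 13.4, 4.27 and 1.46 CPM in any of the other 24 libraries. The parietal cell pump gene Atp4a was at 0.669 CPM in it, against up to 2.59 CPM in the others. The summed gastric list reached 19056 CPM in this library, and 416 to 1112 CPM in the other 9 gland-rich libraries, against 195 to 388 CPM in gland-poor libraries. That list includes Pgc, Aqp5 and Ctse, which are also on the Brunner gland list, so its sum is not specific to stomach. In WT_Con replicate 4, with a sum of 1112 CPM, Pgc stood at 516 CPM, Aqp5 at 144 CPM and Ctse at 214 CPM. Vsig1, on the gastric list only, was also higher outside WT_Con replicate 3. In ethanol libraries it had 0.653 to 3.56 CPM when gland-rich (median 2.45), against 0 to 0.943 CPM when gland-poor (median 0.250). Without WT_Con replicate 3, A4gnt differed by a log2 of 6.65, Pgc by 5.52, Aqp5 by 6.18, Glp1r by 5.70 and Muc1 by 3.38, each with an edgeR adjusted p under 0.05, and the gastric surface genes Gkn1, Gkn2, Muc5ac and Cldn18 by 0.65, 0.78, 1.10 and 0.88, each with an adjusted p of 1.

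The same genes were compared within each diet, in libraries that do not overlap. In ethanol libraries alone (5 gland-rich, 11 gland-poor), 74 genes were called higher (0.436%) and 1 lower. In control libraries alone (5 gland-rich, 3 gland-poor), edgeR called 0 genes, with 1531 at an unadjusted p under 0.05. All 74 genes called in ethanol libraries had a log2 above 0 in control libraries, where 50.3% of all genes did, and 72 of them also had an unadjusted p under 0.05 there, where 6.21% of all genes did. Their median log2 was 2.10 in ethanol and 3.25 in control libraries, which include WT_Con replicates 3 and 4 with the most Muc6. A4gnt had 15.3 to 145 CPM in gland-rich ethanol libraries, against 0.399 to 1.70 CPM in gland-poor ethanol libraries (log2 6.19 ± 0.43, edgeR adjusted p = 3.22e-07). In control libraries it had 6.62 to 395 CPM when gland-rich, against 0.269 to 0.484 CPM when gland-poor (log2 8.61 ± 1.43, edgeR adjusted p = 0.441). Glp1r differed by a log2 of 5.86 ± 0.56 in ethanol and 5.98 ± 1.18 in control libraries. The difference between diets was tested for each gene: 0 passed an adjusted p under 0.05 by edgeR or by limma-voom, 1012 had an unadjusted p under 0.05 by edgeR and the smallest adjusted p was 0.800. Of the 94 called genes, 17 (18.1%) had an unadjusted p under 0.05 for the difference between diets, against 5.96% of all genes tested. A p that misses the threshold does not show that the diets act alike.

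**Figure D5:**
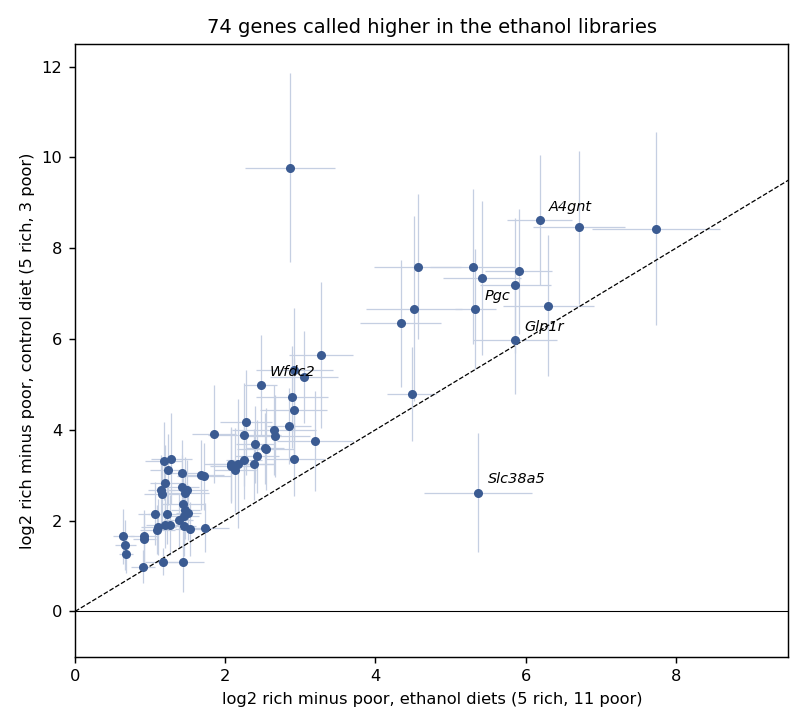
Log2 difference between gland-rich and gland-poor libraries for the 74 genes called higher in ethanol libraries, with that value on the x axis and the value in control libraries on the y axis; bars are SE and the dashed line marks equal values. All 74 points lie above 0 on both axes, and most lie above the dashed line.

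Within the 10 gland-rich libraries, genes followed Muc6 with different slopes. A slope of 1 on log2 scales means that a gene changed from library to library by the same factor as Muc6. Tff2 had a slope of 0.94, Gkn3 0.92, A4gnt 1.02, Glp1r 1.02, A2ml1 1.13, Pgc 0.92 and Aqp5 0.90. Shallower slopes were those of Clu at 0.68, Creb3l1 at 0.62, Spdef at 0.56, Hgfac at 0.53, Gne at 0.46 and Tmed3 at 0.29. Of the 93 genes, which were called for going with the Muc6 class, 60 had a slope above 0.5, as did 156 (0.919%) of all genes tested. These slopes describe 10 libraries whose values share one depth each, and carry no p.

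Proportions to Muc6 showed where single libraries departed from the rest. Glp1r stood at 2.33 counts per 1000 Muc6 counts in KI_Half replicate 3 and 11.2 in WT_Full replicate 1, against 24.6 to 41.9 in the other 8 gland-rich libraries. A4gnt was likewise lowest in KI_Half replicate 3, at 6.94 counts per 1000 Muc6 counts, with a median of 18.4 and a highest value of 24.8 over the gland-rich libraries. That library also had the highest Nos2 of the gland-rich libraries, 43.5 CPM against a median of 1.41 CPM, and the part of inflammation in its values was not tested. For Pgc, Glp1r, A4gnt and Aqp5 the proportions reached higher values in gland-poor libraries. Pgc stood at 31.8 to 93.4 counts per 1000 Muc6 counts in gland-rich libraries, against 68.7 to 348 in gland-poor libraries. Glp1r stood at 2.33 to 41.9 in gland-rich libraries, against 27.5 to 410 in gland-poor libraries. A4gnt reached 89.6 and Aqp5 55.5 in gland-poor libraries, against at most 24.8 and 19.5 in gland-rich libraries. In gland-poor libraries the median levels of A4gnt and Aqp5 were 0.731 and 0.409 CPM, near the floor.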

How the data were processed

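The submitters' processing notes name FastQC, Trimmomatic, HISAT2, SAMtools, featureCounts, DESeq2 and the build GRCm38. Tool versions, strand setting and the treatment of multiply matching reads are not recorded in them, so overlapping and near-identical genes are uncertain. The authors deposited whole-number read counts per gene, without normalisation, in 2 tables that held the same counts; a further deposited column gives the number of libraries above 20 counts per gene. Its smallest value was 5, and rarer genes were not analysed here. Of 17220 lines, 213 repeats were merged into 17007 genes, of which 16995 were placed with GENCODE M21.

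CPM is the raw count per library total, and totals ran from 24.6 to 44.8 M counts. Gland-rich and gland-poor libraries were compared with edgeR 4.0.16 in R 4.3.3 (quasi-likelihood F test, TMM factors, default low-count filter by class, diet as covariate, two-sided, Benjamini-Hochberg adjusted p under 0.05); log2 differences come from that fit. Each SE was computed as the absolute log2 difference divided by the square root of the F statistic. Medians, ranges and list sums in CPM pool both diets unless a diet is named, and so do not hold diet equal. The difference between diets was tested as an interaction term. Alternatives were DESeq2 1.42.0, limma-voom (limma 3.58.1), other size factors, no filter, no covariate or the 5 groups as covariate, a replicate block, other Muc6 thresholds, log2 Muc6 as a number, dropping libraries with acinar Ctrb1 over 10 CPM, 1 diet at a time, and leaving out each library. The steps were also run on simulated counts. The outcome of that run is not given, so no result here rests on it.

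The members, the 34 gene lists and the tests were chosen with earlier results of these data known. The rule for named genes takes the 12 largest log2 differences in each direction among called genes that average log2 CPM 2 or more, without predicted genes, clones and receptor segments, then the 3 markers, then the 4 tested genes of lowest p in every list; a part of these is described. All other genes named, such as 2310057J18Rik, Adam28, Clu, St8sia6, Padi2, F5, Hgfac, Hpn, Gne, Gna14, Slc38a5 and Crygn, were chosen after their values were seen.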

Additional observations from a re-analysis of the deposited data

Results flagged for a closer look

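Over the 10 gland-rich libraries, 95 measures (gene levels, proportions to Muc6 and the library total) were screened for a single library whose gap to its nearest neighbour exceeded Dixon's critical value, 0.466 of the range for 10 libraries. The screen marked 25, and 23 of them are 1 library, the gland-rich WT_Con replicate 3. A rate of about 1 in 20 by chance holds for this critical value only with normal values. Muc6 itself was skewed in gland-rich libraries, from 411 to 21066 CPM with a median of 3886 CPM, and many screened genes went with it. Some were also chosen after their values were seen, so the number of marks is not set against chance. In that library the gastric surface genes reached 5664 CPM for Gkn1, 6632 CPM for Gkn2, 2017 CPM for Muc5ac, 433 CPM for Cldn18, 150 CPM for Vsig1, 1396 CPM for Ctse and 105 CPM for Sult1c2. The secreted and surface gene products reached 987 CPM for Pgc, 2146 CPM for 2310057J18Rik, 783 CPM for Clu, 144 CPM for Muc1, 113 CPM for F5, 43.9 CPM for Adam28 and 76.5 CPM for Slc9a4. The glycosylation genes St8sia6, Galnt12 and Galnt7 reached 67.4, 156 and 363 CPM. The regulators and receptors reached 40.8 CPM for Eya2, 88.3 CPM for Foxa1, 130 CPM for Ern2, 13.8 CPM for Chrm3 and 98.3 CPM for Ephb3, and the folate enzyme gene Aldh1l2 reached 11.2 CPM.

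The other 2 marks fell on WT_Con replicate 1, which had 11.6 CPM of Cfd, a gene of fat cells, and on WT_Full replicate 1, which had 160 CPM of Mki67, a gene of dividing cells. Neither Cfd nor Mki67 passed the comparison of gland-rich with gland-poor libraries. WT_Con replicate 3 is also the library with the most Muc6, and marks on 1 library are not independent of each other.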

How the results depend on the processing

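The count of called genes, 94, depended on the model. It was 186 with DESeq2, 217 with no covariate, 316 with log2 Muc6 as a number, 55 with a replicate block and 0 in control libraries only, and 57 to 155 when each library in turn was left out. Without a covariate the classes also differ in diet, and the fit in control libraries has 8 libraries; the other causes were not tested. The 39 pairs of libraries with the same replicate number had correlations from -0.41 to 0.53 with a median of -0.01, and 10 exceeded 0.1. Of 25 libraries, 6 correlated best with their own number. Pairs with different numbers were not set beside these, so the values do not decide whether replicate numbers pair the libraries. The count of genes whose difference depended on diet was 0 in every alternative run. Of the called genes, the 48 that were followed through the alternatives kept their sign in every alternative run. These are genes named here, and most runs share most of their libraries. Graded against the main fit, single gene results in leave-one-out fits were the same 1966 times, weaker 109 times and stronger 27 times. In the other alternatives they were the same 963 times, weaker 104 times and stronger 57 times. A value that was never called, that of Dmbt1, turned to -0.039 with limma-voom, -0.051 with no covariate, -0.12 in control libraries only and -0.011 without KI_Half replicate 3, and reached 0.27 without WT_Half replicate 2. Counting error is small at these depths, except near 1 CPM and below.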
